A study of Danio rerio with 6 samples.

Results

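The endocrine pancreas was examined in RNA-Seq counts of whole zebrafish larvae at 7 dpf through 10 genes chosen by symbol: 4 hormone genes (*ins*, *gcga*, *gcgb*, *sst2*), 4 islet transcription factor genes (*pdx1*, *insm1a*, *neurod1*, *isl1*) and 2 prohormone convertase genes (*pcsk1*, *pcsk2*). All 10 were present among 30713 named rows, and all 10 passed the filter on low counts that left 21617 genes for testing. The control group (n = 3 pools) received 0% EtOH. The embryonic alcohol exposure (EAE) group (n = 3 pools) was kept in 1% EtOH between 12 hpf and 5 dpf. Both groups were WT fish of the AB strain, kept without EtOH for 48 hours after 5 dpf with live food, and homogenized whole as pools of 30 larvae. The labels describe siblings divided among tubes and the paper describes combined clutches, so p-values measure the spread between pools, which may be smaller than that between clutches. No islet was isolated, and in whole larvae fewer cells of a type and less RNA per cell cannot be told apart.

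Islets of Langerhans are clusters of hormone cells scattered in the pancreas; the zebrafish larva has one principal islet. Beta cells make insulin, which lowers blood glucose, alpha cells make glucagon, which raises it, and delta cells make somatostatin, which restrains both. Each hormone is translated as an inactive precursor that the convertases Pcsk1 and Pcsk2 cut inside secretory granules. The transcription factors that build islets are not restricted to them: *neurod1*, *isl1* and *insm1a* also act in neurons, retina and gut endocrine cells, and the convertases also serve neurons and the pituitary.

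Counts on named genes totalled 17264955 to 23638705 per pool. Levels are given as CPM after edgeR's trimmed mean normalization (TMM), that is, counts scaled to library size. They were not divided by transcript length, so they compare pools for one gene and not genes with one another. Differences were tested over all 21617 genes with edgeR's quasi-likelihood test and Benjamini-Hochberg adjustment, and a gene was called at an adjusted p-value under 0.05. Fold changes are EAE over control on the log2 scale, and SE is their standard error. No 2 pools agreed within counting noise (chi-square per degree of freedom of at least 3.56 within groups).

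In EAE larvae 3 of the 10 genes were called lower and 0 higher, and the 3 were all transcription factor genes: *neurod1*, *isl1* and *insm1a*. None of the 4 hormone genes, neither convertase gene and not *pdx1* was called. Over all tested genes 14.2% were called, 7.22% higher and 6.95% lower. The median log2 fold change (EAE minus control) was -0.23 over the 10 genes and 7.7e-04 over all genes. At an unadjusted p-value under 0.05 there were 7 of the 10, where 28.8% of all genes reached that level. The 3 EAE pools lay below the 3 control pools for 6 of the 10 and above them for 0. Over all genes 32.0% did not overlap in either direction and 16.0% lay below.

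**Figure D1:**
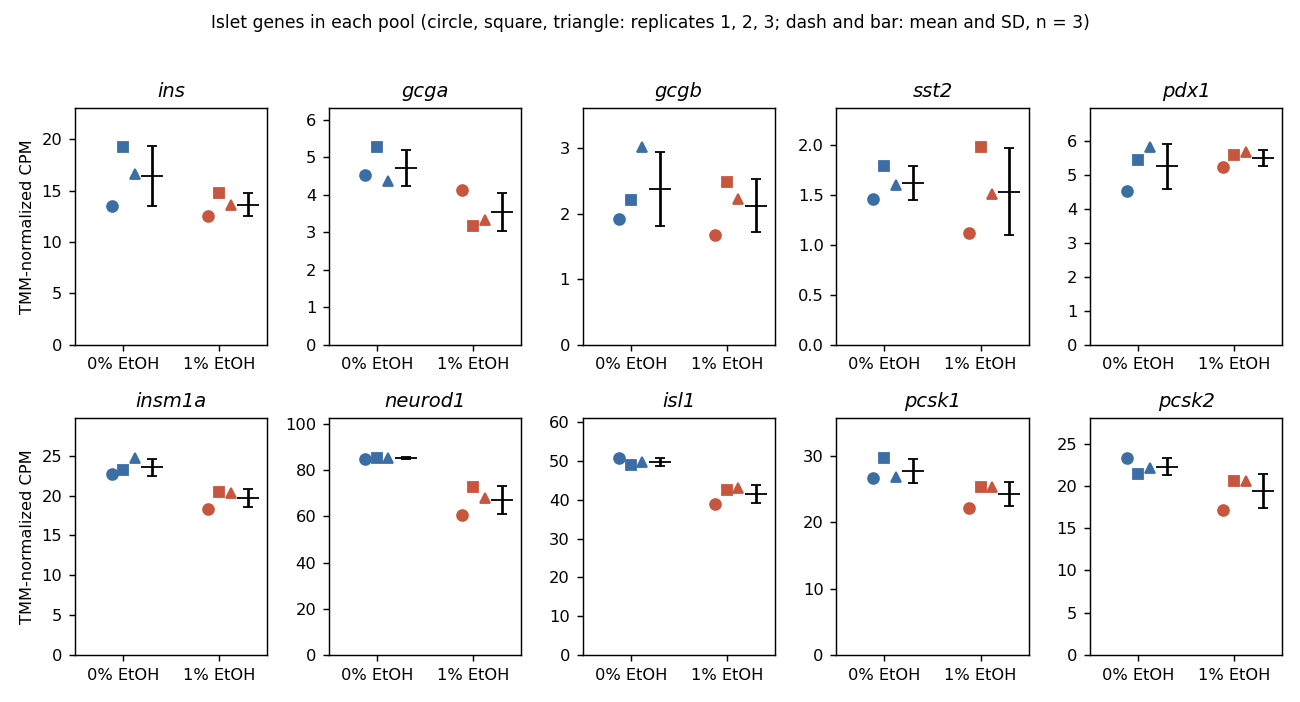
Level of each islet gene in each pool, as TMM-normalized CPM on the vertical axis, with control (0% EtOH, blue) and EAE (1% EtOH, red) on the horizontal axis; symbols mark replicates and the dash and bar give mean and SD (n = 3). The EAE pools of *neurod1* (60.6 to 72.6 CPM) sat below its control pools (84.7 to 85.4 CPM), whereas those of *ins*, *gcgb*, *sst2* and *pdx1* overlapped the controls.

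The insulin gene *ins*, transcribed in beta cells, was at 13.5, 19.2 and 16.6 CPM in control replicates 1, 2 and 3 and at 12.5, 14.7 and 13.6 CPM in the EAE pools. The control pools were widely spread, and the lowest of them fell within the EAE range. The means were 16.4 ± 2.89 CPM and 13.6 ± 1.12 CPM (SD, n = 3 for both), a log2 fold change of -0.27 (95% confidence interval -0.49 to -0.04, edgeR adjusted p = 0.10). The call turned on one pool: without control replicate 1 the log2 fold change was -0.39 (edgeR adjusted p = 0.023), and without control replicate 2 it was -0.15 (edgeR adjusted p = 0.43). The second insulin gene, *insb*, had 0 to 3 counts per pool and was too low to test.

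Of the paired glucagon precursor genes, *gcga* was at 4.54, 5.27 and 4.37 CPM in controls and at 4.12, 3.17 and 3.32 CPM in EAE larvae. Every EAE pool was below every control pool (p = 0.1 by exact permutation, the least possible with 3 pools a group). Its log2 fold change of -0.40 had the largest size of the 10 genes, with a wide interval (95% confidence interval -0.72 to -0.09, edgeR adjusted p = 0.080). The paralog *gcgb* was at 1.92, 2.2 and 3.01 CPM in controls and at 1.67, 2.47 and 2.21 CPM in EAE larvae. Its groups overlapped, and its log2 fold change of -0.18 had an interval that spanned both directions (-0.63 to 0.26). Without control replicate 3 it was 0.041. Because the treatment of multiply aligned reads is not given, reads may have moved between these paralogs.

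The somatostatin gene *sst2* was at 1.46, 1.80 and 1.60 CPM in controls and at 1.12, 1.98 and 1.51 CPM in EAE larvae. The EAE pools spanned the whole control range (log2 fold change -0.09, 95% confidence interval -0.58 to 0.41). Another somatostatin gene, *sst1.1*, which is not one of the 10 and is transcribed in brain as well as islet, was called lower. It was at 14.6, 15.4 and 16.0 CPM in controls and at 10.7, 11.3 and 12.4 CPM in EAE larvae. These groups did not overlap, and the log2 fold change was -0.42 (SE 0.09, edgeR adjusted p = 0.0033).

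The 4 hormone genes together had 411 to 527 counts per pool, so counting error, beside the spread between pools, limits what could be seen. Random counting gave an expected coefficient of variation of 5.77% for *ins*, 11.0% for *gcga*, 14.9% for *gcgb* and 17.8% for *sst2*. The observed coefficient of variation among control pools was 17.6% for *ins*, above its counting error, and 10.3% for *sst2*, below its counting error. Among EAE pools it was 8.25% for *ins* and 28.1% for *sst2*, both above their counting error. For *ins* the interval ran from a fall of 2.89% to one of 28.9%. For *sst2* it ran from 0.67 to 1.33 times the control level, the lower end being a fall of 33.3%. A moderate change of *sst2* was therefore not detectable at this depth.

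Ratios between genes within a pool do not depend on library size, and 5 were compared. The log2 ratio of *gcga* to *ins* was -1.56, -1.86 and -1.92 in controls and -1.59, -2.21 and -2.03 in EAE larvae. The groups overlapped, and the difference of -0.16 had an exact permutation p of 0.4 (adjusted over 5 ratios, 0.8). The differences were 0.10 for *gcgb* to *ins* and 0.15 for *sst2* to *ins*. The difference was -0.26 for *gcga* to *gcgb* and 0.01 for *pcsk1* to *pcsk2*. All 5 overlapped between groups, with adjusted p-values of 0.8 from the exact permutation test. With 3 pools a group this test cannot give a p-value under 0.1, so it could not have called a shift of any size. The p-values therefore do not decide whether one gene shifted against another, and only the overlap of the pools is read from these ratios.

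Among the transcription factors, *pdx1*, which specifies the pancreas and later maintains beta cells, was the single gene of the 10 with a higher mean in EAE larvae. It was at 4.54, 5.45 and 5.83 CPM in controls and at 5.24, 5.59 and 5.69 CPM in EAE larvae. All 3 EAE pools lay inside the control range (log2 fold change 0.06, 95% confidence interval -0.21 to 0.33, edgeR adjusted p = 0.80). Without control replicate 1 the sign turned, to -0.039.

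The gene *neurod1*, a basic helix-loop-helix factor of differentiating endocrine cells and neurons, had the smallest p-value of the 10. It was at 84.7, 85.4 and 85.2 CPM in controls and at 60.6, 72.6 and 67.8 CPM in EAE larvae. The log2 fold change was -0.35 (SE 0.06, edgeR adjusted p = 8.7e-04), a fall of 21.4% (95% confidence interval 14.3% to 27.9%). The control pools varied by 0.442%, less than the 2.56% that counting alone gives, and the EAE pools varied by 9.05%, more than counting gives. Among all 21617 genes *neurod1* ranked 376 by p-value.

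The LIM homeodomain gene *isl1*, needed for islet cells and for motor and retinal neurons, was at 50.9, 48.8 and 49.7 CPM in controls and at 38.9, 42.6 and 43.1 CPM in EAE larvae. The groups did not overlap, and the log2 fold change was -0.26 (SE 0.06, edgeR adjusted p = 0.0053). The zinc finger gene *insm1a*, a repressor that promotes endocrine and neuronal differentiation, was at 22.7, 23.2 and 24.8 CPM in controls and at 18.3, 20.4 and 20.3 CPM in EAE larvae. The difference was -0.26 on the log2 scale (SE 0.07, edgeR adjusted p = 0.022). This call was the least firm of the 3: the adjusted p was 0.065 with DESeq2's Wald test, 0.101 without control replicate 3 and 0.10 without EAE replicate 1. Its paralog *insm1b*, which could share reads with it, was also called lower, at -0.35 (SE 0.07, edgeR adjusted p = 0.0045).

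The convertase gene *pcsk1*, whose mammalian product cuts proinsulin, was at 26.7, 29.8 and 26.8 CPM in controls and at 22.2, 25.4 and 25.4 CPM in EAE larvae. The gene *pcsk2*, whose mammalian product releases glucagon from its precursor, was at 23.3, 21.4 and 22.1 CPM in controls and at 17.1, 20.6 and 20.5 CPM in EAE larvae. Neither gene's groups overlapped, and neither was called. The log2 fold changes were -0.19 (95% confidence interval -0.34 to -0.04) for *pcsk1* and -0.20 (95% confidence interval -0.37 to -0.04) for *pcsk2*, with edgeR adjusted p-values of 0.088 and 0.097.

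**Figure D2:**
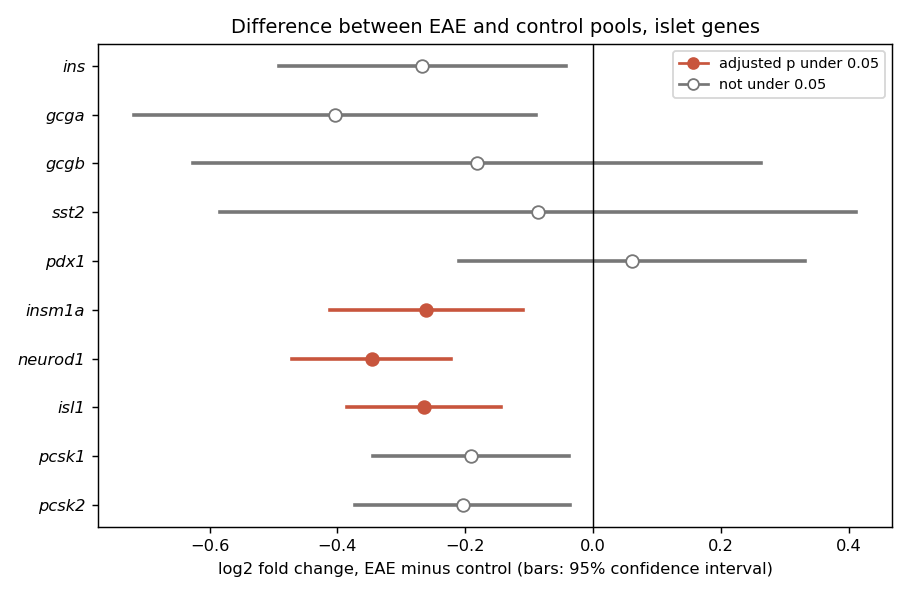
Log2 fold change of each islet gene (horizontal axis, EAE minus control) with its 95% confidence interval; filled red points had an adjusted p-value under 0.05. The filled points are *insm1a* (-0.26), *neurod1* (-0.35) and *isl1* (-0.26), while the intervals of *gcgb*, *sst2* and *pdx1* cross 0.

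In both groups replicate 1 was the lowest pool for most of these genes, in controls partly by small margins. EAE replicate 1 was the lowest of its group for 9 of the 10 genes, the exception being *gcga*, where it was the highest. Over all tested genes the same pool was the lowest for 36.0%. Control replicate 1 was the lowest control pool for 7 of the 10 (33.0% of all genes) and the highest for 2, *isl1* and *pcsk2*. Some of these ranks lay within counting error. For *neurod1* control replicate 1 was at 84.7 CPM against 85.2 CPM in control replicate 3, and for *pcsk1* at 26.7 against 26.8 CPM. EAE replicate 2 was the highest EAE pool for 7 of the 10 (33.5% of all genes). Without EAE replicate 1 the log2 fold changes of *neurod1* and *isl1* were -0.28 and -0.22, the values closest to 0 over their alternatives, and both were still called (edgeR adjusted p = 0.0051 and 0.031). Without the same pool *sst2* had the higher mean in EAE larvae (0.11 on the log2 scale, edgeR adjusted p = 0.83).

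Cell types other than islets share several of these genes, and their markers were summed in each pool. The 19 neuron markers summed to 4071 to 4150 CPM in control pools and 3319 to 3704 CPM in EAE pools. The groups did not overlap, and EAE replicate 1 was again the lowest. All 19 had lower means in EAE larvae (median log2 fold change -0.17). Of the 19, 10 were called lower (52.6%), where 14.2% of all tested genes were called in either direction. Without control replicate 1 or EAE replicate 1 the count was 6. Of the 10, *map1aa*, *syt1a*, *stmn1b*, *snap25a* and *snap25b* had log2 fold changes from -0.36 to -0.23, and *gpm6aa*, the most abundant, was at -0.23. The call of *gpm6aa* was lost without control replicate 1 (edgeR adjusted p = 0.065) or EAE replicate 1 (0.078).

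The 17 retina markers summed to 3965 to 4149 CPM in controls and 3370 to 3746 CPM in EAE larvae, with 7 called lower (41.2%). The count was 3 without control replicate 3 and 4 without control replicate 2 or EAE replicate 1. The 7 included the photoreceptor genes *pde6h*, *rcvrn2*, *gnat1*, *opn1mw1* and *opn1sw2*, from -0.50 to -0.18. The most abundant, *opn1sw1*, *rho* and *gnat2*, were not called, at -0.11, -0.18 and -0.13. The call of *opn1sw2* was lost without control replicate 2 or 3 or EAE replicate 1, and that of *opn1mw1* without control replicate 3. The 13 pituitary markers together reached 24.3 to 27.6 CPM in controls and 21.0 to 23.0 CPM in EAE larvae. Only 6 of the 13 could be tested and 0 were called (2 at an unadjusted p-value under 0.05, and 0 with DESeq2's Wald test); *six6b*, *gh1* and *cga* were at -0.27, -0.17 and -0.52. The part of neurons, retina and pituitary in the lower levels of *neurod1*, *isl1*, *insm1a* and the convertases was not tested.

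Within a pool, the genes shared with neurons were also set against the summed neuron markers, a comparison chosen after the data were seen. Relative to these markers the EAE pools lay below all control pools for *neurod1* (difference -0.14 on the log2 scale) and for *isl1* (difference -0.05). Both had the smallest exact permutation p possible, 0.1 (adjusted over 10 comparisons, 0.33). For *insm1a*, *pcsk1* and *pcsk2* the groups overlapped, with differences of -0.05, 0.02 and 0.01. These comparisons do not measure what part of each gene's counts came from neurons, which was not tested.

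The summed markers of the acinar cells that surround islets overlapped between the groups. The 24 acinar markers measured summed to 24206 to 28895 CPM in controls and 23690 to 27253 CPM in EAE larvae. The most abundant digestive enzyme genes, *ctrb1*, *prss59.2* and *try*, had log2 fold changes of 0.03, 0.03 and 0.01. Leaving out one pool at a time turned the sign for *ctrb1* in 2 of 6 fits, for *prss59.2* in 3 and for *try* in 4. Of the 24 genes 2 were called lower (8.33%), *sycn.1* (-0.85) and *cpa1* (-0.27). The gene *sycn.1* had 46 to 82 counts per pool. Its more abundant paralog *sycn.2*, with 2483 to 3311 counts, was at -0.01 and was not called. The call of *cpa1* was lost without control replicate 2 (edgeR adjusted p = 0.20) or EAE replicate 2 (0.13), which left 1 called. Set against the acinar sum, a comparison also chosen after the data were seen, *ins* was at -0.25 and *gcga* at -0.41. The EAE pools were all lower for *gcga* (exact permutation p = 0.1, adjusted 0.33) and overlapped the controls for *ins*, *gcgb*, *sst2* and *pdx1*.

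Gut endocrine cells also transcribe *neurod1*, *insm1a*, *gcga* and *sst2*. Of their 14 markers tested, 3 were called lower (21.4%): *neurod1*, *insm1a* and *sst1.1*. Because *neurod1* and *insm1a* are among the 10 islet genes, most of this count repeats calls given above. The list summed to 159 to 169 CPM in controls and 131 to 145 CPM in EAE larvae, and *neurod1* alone gave 84.7 to 85.4 CPM and 60.6 to 72.6 CPM of these sums. Without the 4 shared genes, a choice made after the data were seen, the other 11 summed to 45.8 to 53.6 CPM in controls and 46.4 to 47.5 CPM in EAE larvae, which overlapped. This sum joined genes of opposite sign. The EAE pools lay below all controls for *sst1.1* (-0.42), which is also transcribed in brain and islet. They lay above all controls for *pyyb* (0.35) and *mlnl* (0.24), neither of which was called. The overlap of the sum therefore does not show that gut endocrine cells were unchanged.

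**Figure D3:**
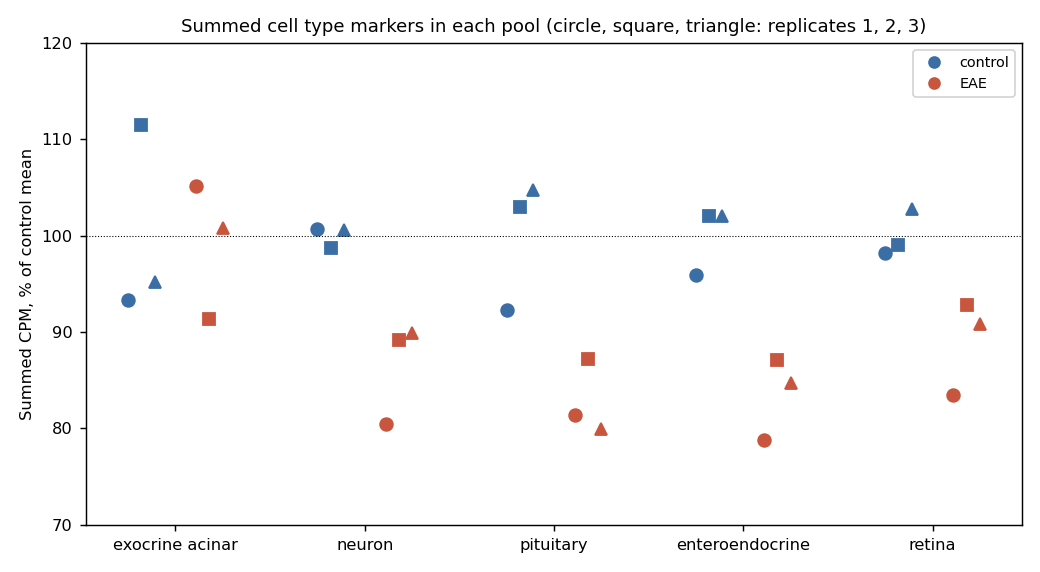
Summed CPM of each marker list in each pool, as a percentage of the control mean (vertical axis from 70 to 120), for control (blue) and EAE (red) pools. The neuron sums of the EAE pools were 80.5% to 89.9% of the control mean, below all controls, while the exocrine acinar sums overlapped.

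The surrounding islet pathway was read from 5 lists. Their levels are those of whole larvae, and the part of islet cells in them was not tested. The share called in each list is to be read beside the 14.2% of all tested genes called in either direction. Of 18 other islet and gut hormone genes tested, 2 were called lower and 0 higher (11.1% called, median log2 fold change -0.16). The 2 were *sst1.1*, above, and *pyya*, a peptide YY gene, at -0.42 (SE 0.13, edgeR adjusted p = 0.043). The paralog *pyyb* went the other way, at 0.35 (edgeR adjusted p = 0.10), and was not called. Each of its EAE pools lay above every control pool. The ghrelin gene *ghrl* was at 0.26 on few counts (SE 0.32) and was not called. The call of *pyya* held without EAE replicate 3 and was lost without any other single pool (edgeR adjusted p 0.067 to 0.19).

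Of 35 other islet and endoderm transcription factor genes tested, 8 were called lower and 0 higher (22.9%, median -0.11). The 5 with the smallest p-values were *sox4a* (-0.26), *pax6b* (-0.29), *insm1b* (-0.35), *myt1a* (-0.25) and *pax6a* (-0.18), all of which are also transcribed in the nervous system. With one pool left out 4 to 6 were called lower: 4 without control replicate 1 or 3, and 5 without control replicate 2 or EAE replicate 1. The call of *pax6a* was lost in 4 of these 6 fits, without control replicate 1 or 3 or EAE replicate 1 or 2 (edgeR adjusted p up to 0.11). Other factors with a part in islet cells were not called: *mnx1* (-0.33, SE 0.20), *nkx6.1* (-0.20), *nkx2.2a* (-0.10) and *arxa* (-0.06). The EAE pools of *nkx2.2a* (7.39 to 7.90 CPM) lay below its control pools (8.11 to 8.23 CPM). The *nkx6.1* paralog *nkx6.2* was at -0.17 (edgeR adjusted p = 0.23), with every EAE pool below every control pool, and was not called either. The part of the nervous system in the levels of these uncalled factors was not tested, so they are not a contrast between islet and nervous system. The endocrine factor *rfx6* had 3 to 13 counts per pool and was too low to test.

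Of 35 hormone processing and granule genes tested, 9 were called lower and 0 higher (25.7%, median -0.13). The neuropeptide precursor gene *vgf* averaged 63.7 ± 3.00 CPM among controls against 47.6 ± 2.54 CPM after EAE (SD, n = 3 for both), or -0.42 on the log2 scale (edgeR adjusted p = 1.0e-04). The granule membrane gene *ptprn2* was at -0.36 and *scg2a*, a granin, at -0.34. The called gene *snap25a* (-0.24) is also among the neuron markers counted above. The convertase inhibitor gene *pcsk1nl*, the carboxypeptidase gene *cpe*, which trims cut hormones, and the granin gene *scg3* were at -0.28, -0.21 and -0.26. The call of *cpe* was lost without control replicate 1 (edgeR adjusted p = 0.065) or EAE replicate 1 (0.082). The zinc transporter gene *slc30a8*, which in mammals loads zinc into insulin granules, was at 0.29 (SE 0.24), and *scg5*, which helps Pcsk2 mature, was at -0.15 (SE 0.18). Neither was called.

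Of 15 genes for glucose sensing and excitability tested, 5 were called lower and 2 higher (46.7%, median -0.22). The count of lower genes rested on single pools. It was 1 without control replicate 1 or EAE replicate 1, 2 without control replicate 2, and 3 without control replicate 3 or EAE replicate 2. The count of higher genes was 1 without control replicate 1, 2 or 3 or EAE replicate 1. The glucokinase gene *gck*, in mammals the glucose sensor of beta cells and also a liver enzyme, was at 1.41, 1.68 and 1.70 CPM in controls and at 6.74, 13.6 and 10.9 CPM in EAE larvae. Its log2 fold change of 2.69 (SE 0.23, edgeR adjusted p = 6.5e-07) was far outside the range of the 10 islet genes, -0.40 to 0.06. The glucose transporter gene *slc2a1b* was also higher, at 0.26. The receptor genes *adcyap1r1a* and *adcyap1r1b* and the gap junction gene *gjd2b* were lower, at -0.25, -0.24 and -0.31. The call of *adcyap1r1a* held with any one pool left out. Without EAE replicate 1 the edgeR adjusted p was 0.13 for *slc2a1b*, 0.12 for *adcyap1r1b* and 0.13 for *gjd2b*, and each of these 3 calls was also lost without control replicate 1. The parts of the beta cell potassium channel, *abcc8* (-0.22, edgeR adjusted p = 0.059) and *kcnj11* (0.32, edgeR adjusted p = 0.11), differed in sign and were not called. The related gene *kcnj11l* was at -0.19 (edgeR adjusted p = 0.20), the same sign as *abcc8*, and was not called. The transporter gene *slc2a2* was at 0.14 (edgeR adjusted p = 0.095).

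Of 19 receptor and insulin signalling genes tested, 3 were called lower and 0 higher (15.8%, median -0.13). This share was near the 14.2% of all tested genes called. The insulin receptor substrate genes *irs2a* and *irs2b* were at -0.35 and -0.24 (SEs 0.07 and 0.05), and the somatostatin receptor gene *sstr1b* was at -0.60 (SE 0.15). The call of *sstr1b* was lost without control replicate 3 (edgeR adjusted p = 0.057) or EAE replicate 1 (0.077). The insulin receptor genes *insra* and *insrb*, at -0.05 and -0.08 (SEs 0.05 and 0.06), and the glucagon receptor genes *gcgra* and *gcgrb*, at -0.20 and -0.53 (SEs 0.08 and 0.21), were not called.

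**Figure D4:**
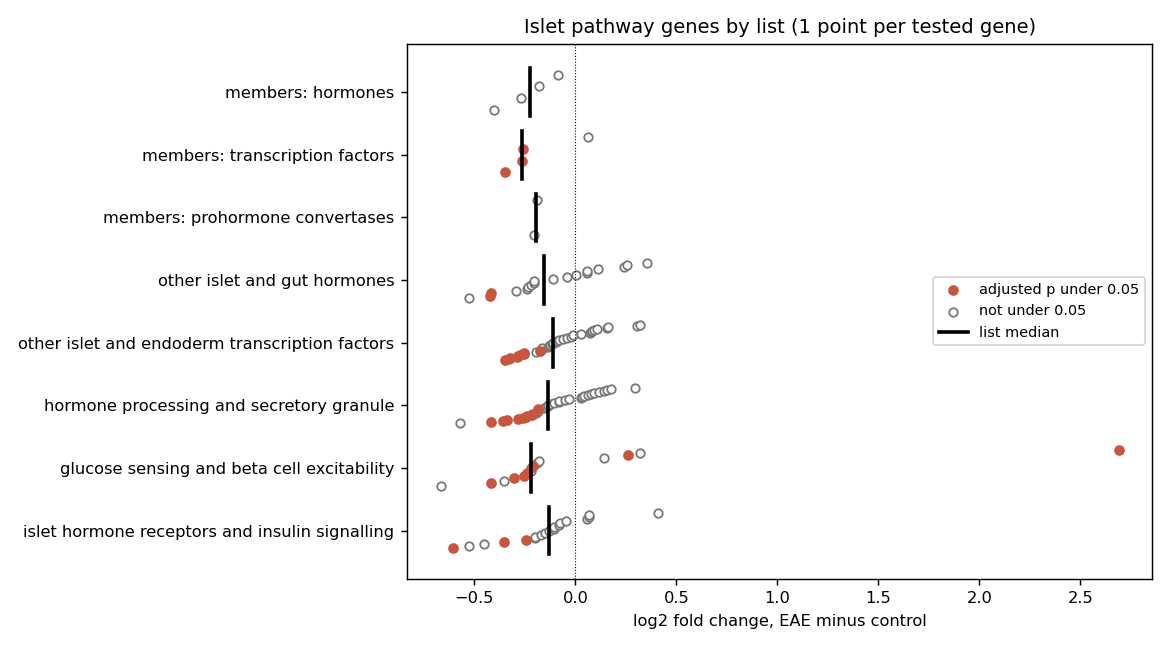
Log2 fold change (horizontal axis, EAE minus control) of every tested gene in the 10-gene set, shown in the top 3 rows, and in 5 islet pathway lists (vertical axis); red points had an adjusted p-value under 0.05 and black bars are list medians. All 8 medians lie below 0, from -0.26 to -0.11, and the lone point at 2.69 is *gck*.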

How the data were processed

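Libraries of poly-A RNA from 6 larval pools were read from one end. Per the labels the reads were mapped with STAR on build GRCz10, and the deposited counts are raw whole numbers, given by gene symbol. The counting program, annotation, use of strand and treatment of multiply aligned reads are not given in the sources used here. The unnamed row (1.49% to 1.57% of counts) was left out. Counts were tested with edgeR 4.0.16 (filterByExpr, TMM, quasi-likelihood F test without a block) in R 4.3.3. Standard errors are the absolute log2 fold change divided by the square root of F. Alternatives used DESeq2 1.42.0 (the paper's test), limma 3.58.1 (voom), other size factors, no filter, a replicate block, a threshold of 0.10, or left out one pool. Ratios used raw counts plus 0.5 (alternative 1) and exact permutation tests. The edgeR step was tested on simulated counts.

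The 10 genes and the lists were chosen with earlier results of these data known. Named genes are the 10, up to 5 per list with the smallest p-values among called genes whose groups did not overlap, a fixed set of islet genes, and the 3 most abundant markers per list. Some paralogs of these genes are named beside them. RefSeq (GRCz12tu) lists 9 of the 10 by symbol and *isl1* as a synonym; its build differs, so no positions are given. Of the fixed genes, *iapp* was not analysed here. Depth ranged from 17264955 to 23638705 counts on named genes. Counting errors given cover counting only, since no molecular identifiers are stated.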

Additional observations from a re-analysis of the deposited data

How the results depend on the processing

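Of the 10 islet genes, *neurod1* and *isl1* were called lower in all 11 alternative fits and *insm1a* in 8. At an adjusted p threshold of 0.10, 6 of the 10 were called lower, where 21.0% of all genes were called in either direction. DESeq2's Wald test called 948 genes higher and 897 lower over all genes, against 1560 and 1503 with edgeR, and leaving out one pool gave 924 to 1497 higher and 717 to 1499 lower. With DESeq2, the genes called lower numbered 1 among other hormones, 4 among other transcription factors, 1 in glucose sensing (with 1 higher) and 1 among acinar markers. Same-numbered pools had correlations of deviations of -0.0086, -0.034 and -0.093, and differently numbered pools had -0.033 to 0.068. These values gave no sign that replicate numbers pair the pools, but with 3 pools a group they cannot exclude a pairing by replicate number. With a replicate block on these numbers, 3 of the 10 islet genes were called lower, against 1216 genes higher and 1120 lower over all genes, with 1 other hormone gene, 4 transcription factors, 2 glucose sensing genes and 1 acinar marker. At the threshold of 0.10, 9 glucose sensing genes and 2 pituitary markers were called lower, and limma-voom and the fit with no filter each called 1 pituitary marker.

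With one pool left out, the genes called lower ranged from 2 to 4 among the 10, 1 to 2 among other hormones (0 to 1 higher), 4 to 6 among transcription factors and 1 to 5 in glucose sensing (1 to 2 higher). They ranged from 1 to 3 for acinar, 6 to 11 for neuron, 0 to 1 for pituitary and 3 to 8 for retina markers, and 0 to 1 gut endocrine markers were called higher. Log2 fold changes that changed sign ranged from -0.32 to 0.041 for *gcgb*, -0.31 to 0.11 for *sst2*, -0.039 to 0.15 for *pdx1* and -0.24 to 0.0032 for *scg5*. They ranged from -0.019 to 0.11 for *ctrb1*, -0.016 to 0.11 for *prss59.2* and -0.027 to 0.093 for *try*. The ratio differences ranged from -0.060 to 0.27 for *gcgb* to *ins* and -0.050 to 0.093 for *pcsk1* to *pcsk2*. Relative to acinar markers *gcgb* ranged from -0.32 to 0.070 and *sst2* from -0.36 to 0.15, and relative to neuron markers *pcsk1* ranged from -0.013 to 0.080 and *pcsk2* from -0.015 to 0.046. The cause of these changes was not tested. With 3 pools a group and 26 to 40 counts of *sst2*, depth and the number of pools both limit the hormone genes.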
